A study of Mus musculus with 27 samples.

Results

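The comparison described here set 3 organoid libraries irradiated with 4 Gy against 3 unirradiated (0 Gy) libraries, all collected on day 7 of culture. They were chosen by their dose and day and make up 6 of the 27 libraries of the series. Mouse thyroid gland organoids (mTGOs) are clusters of epithelial cells that grow in Matrigel, a basement membrane gel, from cells of the dissociated gland. The glands came from female C57BL/6 mice aged 8 to 12 weeks, and every culture, unirradiated ones included, received EGF, FGF2, Y27632 and B27. Photons were given once, after 5 days of culture, so the day 7 libraries were taken 2 days after the dose. Each group held 1 library from each of 3 cultures named mTG11, mTG12 and mTG14, and values below are given in that order. The submitted design names 4 mice, whose numbers in the labels could not be matched to the culture names. The RNA was bulk RNA from whole cultures, in which fewer cells of a type and less RNA per cell cannot be told apart.

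The 6 libraries held 3430300 to 5010592 counts each. Their labelled tissue is thyroid gland, but the defining thyroid genes were scarce. Across the 6 libraries the iodide transporter gene Slc5a5 had 0 counts in all and the TSH receptor gene Tshr had 8. Thyroglobulin (Tg) lay between 0.679 and 4.99 CPM, counts scaled to a library total of 1000000, and the transcription factor genes Foxe1 and Nkx2-1 between 20.4 and 34.7 and between 6.34 and 11.7 CPM. The basal keratin gene Krt5, in contrast, lay between 4465 and 5626 CPM and the epithelial adhesion gene Epcam between 442 and 581 CPM. The levels of the defining thyroid genes thus did not match the tissue name, and the samples are called mTGOs below, after the study's own term.

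Ionising radiation breaks DNA, and the transcription factor p53 answers by switching on genes for cell cycle arrest, repair and cell death, among them its own inhibitor Mdm2 and the CDK inhibitor Cdkn1a (p21). Interferons are secreted proteins that act through JAK kinases and factors such as Stat2 and Irf9, which bind the interferon-stimulated response element (ISRE) and switch on antiviral genes. Nucleic acid in the cytosol, sensed by Cgas and Sting1 or by the RNA sensors Ddx58 and Ifih1, is one known trigger of that pathway.

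At 4 Gy 22 of 30 p53 targets and 28 of 39 interferon-stimulated genes rose, while 5 of 19 immediate early genes, 8 of 24 cornified envelope genes and 10 of 26 genes of cholesterol and fatty acid synthesis fell. In the immediate early and cornified lists 2 genes and 1 gene rose. Of 19346 genes tested, 1009 passed an adjusted p of 0.05 (5.22%), 550 of them higher (2.84%) and 459 lower (2.37%) at 4 Gy. The test was edgeR's quasi-likelihood test on the counts of all 12 day 7 libraries, with the culture as a block and with Benjamini-Hochberg adjustment over all genes tested, and adjusted p-values below come from it unless another fit is named. Differences are given as log2 fold changes of 4 Gy over 0 Gy, where 1 is a 2-fold change, followed by a standard error (SE). The SE was derived from the test, as the size of the log2 value divided by the square root of the F statistic. The median log2 difference over all genes tested was 0.01. Groups did not overlap, in the sense that all 3 irradiated libraries lay above or below all 3 unirradiated ones, for 13.2% of genes tested in the upward and 7.26% in the downward direction.

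The count of 1009 depended on the fit. Without the culture block 315 genes passed, and with the summed level of 13 fibroblast marker genes as a covariate 60 passed. It was 327 without culture mTG11, 650 without mTG12 and 563 without mTG14, and 491, 658, 544 and 663 without the 4 Gy mTG11, 4 Gy mTG14, 0 Gy mTG11 and 0 Gy mTG12 libraries. Of the called genes 54.5% were higher at 4 Gy, and 66.4% with library totals in place of TMM scaling factors.

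That sum of fibroblast markers ranged from 192 to 377 CPM at 0 Gy and from 398 to 590 CPM at 4 Gy, so the groups did not overlap. Most of it came from Sparc, a matrix glycoprotein gene that epithelial cells also express, which had 168, 211 and 256 CPM at 0 Gy and 358, 424 and 272 CPM at 4 Gy (log2 0.67, SE 0.16, edgeR adjusted p = 0.023). The 13 markers had a median log2 difference of 0.51. The defining fibroblast genes Pdgfra and Col3a1 were low, at 0.261 to 2.06 and 2.08 to 13.6 CPM. Of the 13 markers 11 had a log2 difference above 0. By edgeR's test 6 had an unadjusted p under 0.05 and 1 passed after adjustment. The part of fibroblast RNA in the results below was not tested apart from the covariate. Of 8 immune cell markers the defining genes Ptprc and Cd3e had 1 count and 0 counts over the 6 libraries, whereas Cd14 and Cd68, which other cell types also express, had 60.4 to 123 and 11.1 to 23.7 CPM. The summed immune markers ranged from 85.1 to 145 CPM at 0 Gy and from 78.3 to 120.4 CPM at 4 Gy and overlapped. Of 6 endothelial markers Cdh5 had 0 counts and Pecam1 at most 1.04 CPM.

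**Figure D1:**
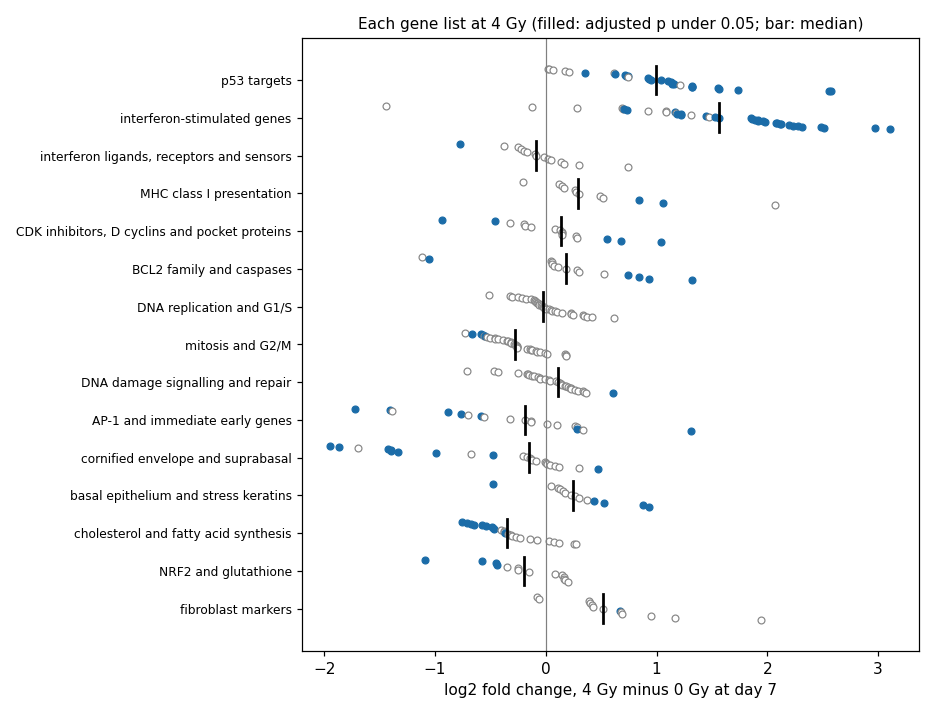
Log2 fold change of each tested member of 15 gene lists, 4 Gy minus 0 Gy at day 7, with filled points where the edgeR adjusted p was under 0.05, black bars at the list medians and a vertical offset that only separates points. The p53 targets and interferon-stimulated genes lie to the right, with medians of 0.99 and 1.57, while the cholesterol list has a median of -0.35.

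Of 30 p53 targets, all tested, 22 rose and none fell, and their median log2 difference was 0.99. Cdkn1a, which arrests the cell cycle, had 223, 247 and 259 CPM at 0 Gy and 486, 613 and 460.5 CPM at 4 Gy (log2 1.04, SE 0.10, adjusted p = 7.9e-06). The cyclin gene Ccng1 went from 88.1, 125 and 100.2 CPM to 317, 364 and 271 CPM (log2 1.55, SE 0.11, adjusted p = 6.1e-07). In both genes every irradiated library lay above every unirradiated one. Mdm2, the ubiquitin ligase that degrades p53, rose from 40.7, 40.7 and 28.4 CPM to 68.0, 103 and 72.0 CPM (log2 1.10, SE 0.13, adjusted p = 9.4e-05). The steepest rise of the list was in the receptor gene Eda2r, with 3.39, 2.39 and 2.06 CPM at 0 Gy and 12.5, 20.2 and 15.8 CPM at 4 Gy (log2 2.58, SE 0.24, adjusted p = 7.5e-06).

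The other p53 targets that rose spread over several roles. Zfp365, a zinc finger gene, came close to Eda2r with a log2 difference of 2.56. Among the genes of cell death, Fas reached log2 1.74, the exonuclease gene Aen 1.32, Tnfrsf10b 1.13, Bbc3 (PUMA) 1.32, Pmaip1 (NOXA) 0.93 and Bax 0.74. Among regulators of p53 or of RNA, Trp53inp1 reached 1.56 and Zmat3 1.32, and among repair genes the translesion polymerase gene Polk 1.14 and the excision nuclease gene Ercc5 0.92. All 30 members had a log2 difference above 0, and 8 did not pass the test. Gdf15, a secreted stress factor, had 1.30, 1.86 and 1.54 CPM at 0 Gy and 2.92, 6.79 and 1.58 CPM at 4 Gy, and its groups overlapped (log2 1.21, SE 0.54, adjusted p = 0.24). The p53 count moved little when a library or culture was left out, between 18 and 22 genes, but with the fibroblast covariate, which itself did not overlap between the groups, 8 of the 30 passed. Among calls lost there, the log2 difference of Polk was 1.27 (SE 0.26, adjusted p = 0.052), that of Tnfrsf10b 0.95 (SE 0.32) and that of Ercc5 0.77 (SE 0.17). Others shrank more: Bbc3 went from 1.32 to 0.75 (SE 0.34, adjusted p = 0.50), Zfp365 from 2.56 to 1.81 (SE 0.45) and Ephx1 from 0.95 to 0.64 (SE 0.14).

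In the BCL2 family and caspase list, 4 of 15 genes rose and 1 fell. The pro-death genes Bbc3, Pmaip1 and Bax are among the p53 targets above, and Bid, which links death receptors to mitochondria, was the other that rose, from 9.12, 5.04 and 6.18 CPM to 10.8, 12.6 and 13.8 CPM (log2 0.84, SE 0.23, adjusted p = 0.042). Bik, another pro-death member, fell from 10.9, 11.4 and 13.6 CPM to 3.21, 6.19 and 8.15 CPM (log2 -1.05, SE 0.23, adjusted p = 0.012). Of 20 alternative fits Bid missed the threshold in 10 and Bik in 8. For both genes these included DESeq2 and each fit with a culture left out.

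Of 39 interferon-stimulated genes tested, 28 rose and none fell, with a median log2 difference of 1.57. The 40th member, Ifi44l, had no counts. Isg15, a ubiquitin-like protein, is the textbook member, and its gene lies on chromosome 4 at 156283883 to 156285303 in GRCm39. It had 18.6, 8.75 and 10.7 CPM at 0 Gy and 106, 44.3 and 40.5 CPM at 4 Gy (log2 2.31, SE 0.33, adjusted p = 0.00047). Ifit1, whose protein binds foreign RNA caps and whose gene lies on chromosome 19 at 34618271 to 34632174 in GRCm39, had 21.7, 10.7 and 11.0 CPM and 101, 34.3 and 38.6 CPM (log2 1.96, SE 0.28, adjusted p = 0.0006). In both genes the groups did not overlap, but culture mTG11 stood apart: it was the highest of the 3 cultures at 0 Gy and again at 4 Gy.

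The ISRE, of which 3.44% of all 32851 RefSeq promoters held a match, was looked for in the RefSeq promoters of these genes (250 bases before to 50 after each annotated start, build GRCm38.p6) as GAAA, any 2 bases and GAAA again, or the reverse complement with TTTC, with overlapping matches allowed. Of the 39 tested members, 28 had a promoter in that table, and 15 of these held a match (53.6%), against 3.64% of all 12308 tested genes with a promoter. Among those 28, a match was present in 11 of 19 that rose and in 4 of 9 that did not pass. The stretches around the matches of 7 genes that rose are shown because they carry this shared letter pattern, 5′ to 3′ on the strand of the gene, with the matching letters in capitals and with positions from an exact match of the promoter to GRCm39:
Isg15 (chr4:156285322-156285363, minus strand): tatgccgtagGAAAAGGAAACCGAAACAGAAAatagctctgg
Ifit1 (chr19:34618175-34618223, plus strand): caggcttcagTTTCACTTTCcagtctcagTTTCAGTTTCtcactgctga
Ifit3 (chr19:34560763-34560826, plus strand): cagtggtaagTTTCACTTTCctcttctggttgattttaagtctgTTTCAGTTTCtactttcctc
Ifit3b (chr19:34585159-34585222, plus strand): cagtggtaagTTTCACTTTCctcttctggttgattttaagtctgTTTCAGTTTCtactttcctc
Rsad2 (chr12:26506552-26506581, minus strand): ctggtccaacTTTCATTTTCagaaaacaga
Bst2 (chr8:71990221-71990256, minus strand): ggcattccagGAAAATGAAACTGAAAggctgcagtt
Oas1a (chr5:121045589-121045618, minus strand): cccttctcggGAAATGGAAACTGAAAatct
The stretches of Isg15, Bst2 and Oas1a hold overlapping matches in tandem. Those of Ifit3 and Ifit3b, neighbouring genes on chromosome 19, are the same 64 bases, and both genes had counts that were not whole numbers, so reads shared between such copies cannot be told apart. A match is a letter pattern and was not tested as a binding site.

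Stat2, Irf9, Irf7 and Usp18 are members of this list that take part in interferon signalling themselves. Stat2 had 10.4, 9.28 and 4.89 CPM at 0 Gy and 26.2, 18.2 and 13.8 CPM at 4 Gy (log2 1.22, SE 0.33, adjusted p = 0.039). Irf9 (log2 1.19) and Irf7 (1.91), the factor that amplifies the response, also rose, as did the negative regulator Usp18 (1.57). Irf7 showed the same split by culture, with 16.4, 7.42 and 6.43 CPM at 0 Gy and 66.5, 22.4 and 28.8 CPM at 4 Gy. Among the effectors, Rsad2 (viperin) rose by 2.97, Ifi44 by 2.49, Ifit3, of the same family as Ifit1, by 2.12, the tetherin gene Bst2 by 1.89 and the oligoadenylate synthetase genes Oas1a, Oas2 and Oas3 by 1.45, 1.98 and 3.11 on the log2 scale.

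Not every member passed. Mx1, a dynamin-like antiviral GTPase, had 7.30, 3.18 and 5.40 CPM and 14.6, 7.82 and 7.92 CPM and lay just outside the threshold (log2 0.93, SE 0.26, adjusted p = 0.051). Epsti1 had 2.87, 1.33 and 1.29 CPM at 0 Gy and 0.875, 0.399 and 0.679 CPM at 4 Gy, lower in each culture, and did not pass (log2 -1.45, SE 0.61, adjusted p = 0.21). The RNA sensor gene Ddx58 had a log2 difference of 0.70 and an adjusted p of 0.086. Without the culture block 0 of the 39 genes passed, with the fibroblast covariate 2, without the unirradiated mTG11 library 16, and without culture mTG11 13. The log2 difference of Isg15 with the covariate was 1.37 (SE 0.43, adjusted p = 0.29).

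Counts of the 5 interferon genes looked at were 0 or nearly so. Ifnb1, Ifna4 and Ifng had 0 counts in the 6 libraries, Ifnl2 had 0.5 and Ifnl3 had 3.5 (how fractional counts arose is not given in the sources used here), so a rise in these 5 genes was not detectable at this depth, where 3 counts amount to 0.599 to 0.875 CPM. Of 15 receptors, kinases and sensors tested, none rose and 1 fell (2.37% of all genes tested fell, so a single call is near the background). That was Sting1, the adaptor of cytosolic DNA sensing, with 43.0, 22.8 and 27.02 CPM at 0 Gy and 28.9, 14.1 and 14.0 CPM at 4 Gy (log2 -0.77, SE 0.16, adjusted p = 0.0091). Its groups overlapped, but within each culture the irradiated library was the lower one. In antigen presentation by MHC class I, 2 of 12 genes rose: the peptide transporter gene Tap1 went from 23.7, 15.4 and 18.3 to 53.9, 37.7 and 32.1 CPM (log2 1.06, SE 0.13, adjusted p = 0.00011). The light chain gene B2m rose by 0.84 (SE 0.12, adjusted p = 0.00062), while the heavy chain genes H2-K1 and H2-D1 did not pass.

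**Figure D2:**
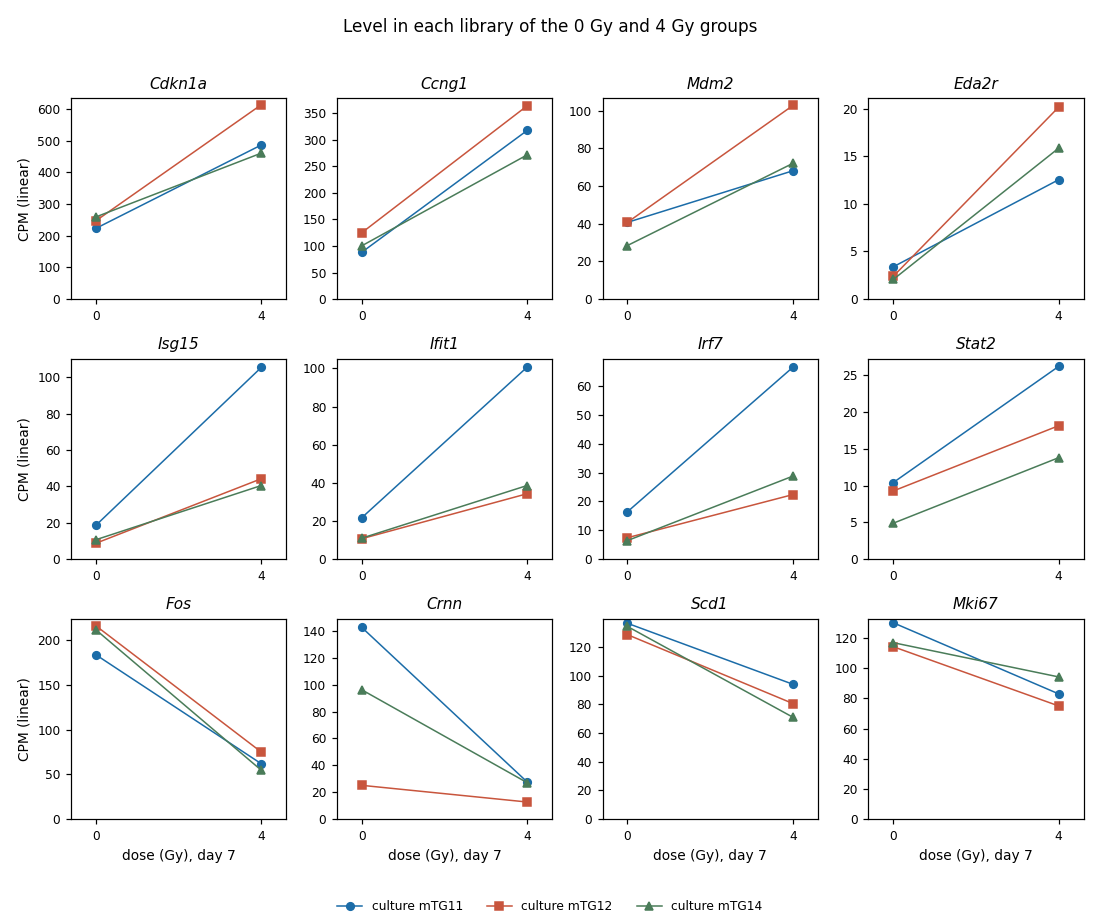
Level in CPM on a linear axis from 0 of 12 genes in the 0 Gy and 4 Gy libraries at day 7, with lines joining the 2 libraries of a culture. Cdkn1a sits between 223 and 259 CPM at 0 Gy and between 460 and 613 CPM at 4 Gy in all cultures, whereas Isg15, Ifit1 and Irf7 are highest in culture mTG11 at both doses.

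Cell cycle genes passed in smaller numbers. Among CDK inhibitors, D cyclins and pocket proteins, 3 of 16 genes rose and 2 fell. Beside Cdkn1a the D cyclins rose: Ccnd2 went from 1819, 1397 and 1371 CPM to 2672, 2807 and 2115 CPM (log2 0.68, SE 0.08, adjusted p = 0.00011) and Ccnd1 by 0.55 (SE 0.08, adjusted p = 0.00056). The inhibitor genes Cdkn1b (p27) and Cdkn2d (p19) fell by 0.46 and 0.94 on the log2 scale. Cdkn2a, the senescence-linked locus of p16 and p19ARF, had 28.1, 48.5 and 40.9 CPM and 34.4, 68.7 and 34.9 CPM, which overlapped.

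Of 35 DNA replication and G1/S genes none passed edgeR's test in either direction (4 had an unadjusted p under 0.05), and their median was -0.03. Of 36 mitosis and G2/M genes 4 fell and none rose, with a median of -0.28. The 4 were Mki67, the common marker of cycling cells, the centromere genes Cenpa and Cenpf and the spindle gene Nusap1. Mki67 had 130.1, 114 and 117 CPM at 0 Gy and 83.0, 75.01 and 94.2 CPM at 4 Gy (log2 -0.56, SE 0.15, adjusted p = 0.044). Nusap1 had 57.6, 45.9 and 48.5 CPM and 42.9, 30.3 and 31.9 CPM (log2 -0.59, SE 0.11, adjusted p = 0.0046). Neither overlapped between groups, whereas Top2a, the mitotic topoisomerase gene, had 215, 165 and 172 CPM and 176, 135 and 148 CPM, overlapped and did not pass (adjusted p = 0.17). The count of 4 became 1 to 3 when a library or a culture was left out and 0 with the fibroblast covariate or without the culture block.

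Mitotic genes commonly carry the cell cycle homology region (CHR), searched as TTTGAA or TTCAAA. Of 29 members with a promoter 21 held it (72.4%), against 15.3% of all tested genes with a promoter, and among replication genes 3 of 29 did (10.3%). Among the 29 mitosis genes a match was present in 3 of 4 that fell and in 18 of 25 that did not pass. The stretch upstream of Mki67 is shown because it carries it in tandem, in capitals:
Mki67 (chr7:135318191-135318234, minus strand): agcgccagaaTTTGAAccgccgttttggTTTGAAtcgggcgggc
In the repair list 1 of 33 genes rose (2.84% of all genes tested did, so the share was near the background), the single-strand break scaffold Xrcc1, from 16.2, 19.6 and 15.4 CPM to 28.9, 28.3 and 23.8 CPM (log2 0.61, SE 0.14, adjusted p = 0.019). The checkpoint kinase gene Chek1 had 6.77, 6.36 and 6.43 CPM and 4.08, 3.39 and 4.75 CPM, without overlap but short of the threshold (log2 -0.72, SE 0.30, adjusted p = 0.22).

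Immediate early genes code for transcription factors that growth factors switch on within minutes. Of 19 in the list 5 fell and 2 rose. Fos, on chromosome 12 at 85520658 to 85524047 in GRCm39, fell the most, with 183, 216 and 211 CPM at 0 Gy and 61.8, 74.8 and 54.6 CPM at 4 Gy (log2 -1.72, SE 0.13, adjusted p = 9.2e-07). Its paralogue Fosb had 25.3, 21.7 and 24.7 CPM and 8.45, 12.4 and 6.79 CPM (log2 -1.41, SE 0.19, adjusted p = 0.00031), and Egr1, a zinc finger factor, 293, 194 and 224 CPM and 129, 120.1 and 146 CPM (log2 -0.88, SE 0.13, adjusted p = 0.00056). No irradiated library of these 3 genes reached any unirradiated one. The phosphatase gene Dusp1 and Ier2 fell too (log2 -0.77 and -0.59). Fosl1, another AP-1 subunit, moved in the opposite direction, from 5.99, 4.51 and 5.92 CPM to 15.7, 12.2 and 14.7 CPM (log2 1.31, SE 0.23, adjusted p = 0.0029), as did Klf6 (log2 0.29). With the fibroblast covariate 2 genes of the list fell, and without the 4 Gy mTG11 library or the culture mTG11 3 did.

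Cornified envelope genes are made late, when cells of a stratified epithelium leave the basal layer and flatten. Of 24 genes 8 fell and 1 rose, with a list median of -0.15. Flg (filaggrin), on chromosome 3 at 93180830 to 93200993 in GRCm39, had 28.0, 5.04 and 15.4 CPM at 0 Gy and 4.66, 3.09 and 3.85 CPM at 4 Gy (log2 -1.95, SE 0.32, adjusted p = 0.0018). Crnn (cornulin) had 143, 25.2 and 96.2 CPM and 27.7, 12.8 and 27.2 CPM (log2 -1.87, SE 0.20, adjusted p = 2.8e-05). In both genes culture mTG12 started low, so for Crnn the groups overlapped although each culture was lower at 4 Gy. Rptn, Lor, the protease gene Asprv1, Kprp, Krtdap and Dmkn fell by 1.34, 1.39, 1.40, 1.42, 0.99 and 0.47 on the log2 scale. Ivl (involucrin), an early envelope component, rose instead, from 60.4, 49.6 and 42.7 CPM to 89.5, 67.9 and 62.5 CPM (log2 0.47, SE 0.10, adjusted p = 0.014). The count of 8 fell to 3 without culture mTG11, 4 without the 0 Gy or the 4 Gy library of mTG11, 5 without the 4 Gy library of mTG12 and 1 with the fibroblast covariate or without the culture block.

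On the basal side, 4 of 14 genes rose and 1 fell. Krt17, a stress keratin, had 805, 806 and 802 CPM at 0 Gy and 1754, 1478 and 1382 CPM at 4 Gy (log2 0.88, SE 0.14, adjusted p = 0.00098). The laminin chain gene Lama3 rose by 0.53 and the hemidesmosome integrin gene Itgb4 by 0.44. Trp63, the master factor of basal epithelium, fell from 130.0, 138 and 123 CPM to 90.4, 98.6 and 102 CPM (log2 -0.47, SE 0.09, adjusted p = 0.0052). The main basal keratin genes Krt5 and Krt14 had log2 differences of 0.16 (SE 0.08) and 0.22 (SE 0.10) and did not pass. With the fibroblast covariate no call of this list was kept: Itgb4 went to 0.17 (SE 0.14) and Krt17 to 0.71 (SE 0.21). Cd44, an adhesion receptor, was the 1 gene of 12 in the EMT and stemness list that passed, at 0.45 (SE 0.08, adjusted p = 0.0038). Of all genes tested 5.22% passed, so the share in that list was near the background.

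Sterols are built from acetyl-CoA by a chain of enzymes whose genes are switched on by Srebf2, and 10 of 26 genes of cholesterol and fatty acid synthesis fell while none rose. The list median was -0.35. Scd1, a fatty acid desaturase gene, had 136, 128 and 134 CPM at 0 Gy and 93.9, 80.5 and 71.0 CPM at 4 Gy (log2 -0.76, SE 0.09, adjusted p = 0.00011). Fdps, of the isoprenoid step, had 211, 196 and 216 CPM and 141, 146 and 127 CPM (log2 -0.65, SE 0.10, adjusted p = 0.00098). In both genes all 3 irradiated libraries lay below the unirradiated ones. The entry enzyme gene Hmgcs1 fell by 0.47, Mvd by 0.68, Lss by 0.47, Cyp51 by 0.49, Nsdhl by 0.54, Sc5d by 0.37, the desaturase gene Scd2 by 0.57 and the sterol carrier gene Stard4 by 0.71 on the log2 scale. Srebf2 itself did not pass (log2 -0.33, adjusted p = 0.071).

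An SREBP element, searched as TCACNCCAC or GTGGNGTGA, was found in 1 of the 16 cholesterol genes with a promoter in the table, Hmgcs1, against 1.41% of all tested genes with a promoter, and is shown in capitals as the 1 match among genes that fell:
Hmgcs1 (chr13:120151740-120151768, plus strand): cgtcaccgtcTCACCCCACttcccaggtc
The CArG box of serum response factor was found in 2 of 14 immediate early genes with a promoter, Egr2 and Zfp36, neither of which passed, against 1.69% of all tested genes with a promoter. The cholesterol count varied with single libraries: it was 4 without culture mTG11, 5 without the 0 Gy mTG11, 0 Gy mTG14, 4 Gy mTG12 or 4 Gy mTG14 library or without culture mTG14, and 16 without the 0 Gy mTG12 library. With the fibroblast covariate 4 of the 26 fell.

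Glutathione and amino acid genes changed in part. In the NRF2 list 4 of 14 genes fell and none rose, led by the glutathione transferase gene Gstm1, with 224, 130.0 and 193 CPM at 0 Gy and 109.8, 69.3 and 85.7 CPM at 4 Gy (log2 -1.09, SE 0.10, adjusted p = 6.4e-06). The others were Ugdh (-0.57), the cystine transporter gene Slc7a11 (-0.45) and Gclm (-0.44), a subunit gene of the enzyme that begins glutathione synthesis. In the ATF4 list 2 of 19 rose, Phgdh (0.57) and Ddit4 (0.51), and 4 fell, Aldh1l2 (-1.31), Vldlr (-0.72), Psat1 (-0.47) and Slc7a11. Phgdh and Psat1 code for consecutive enzymes of serine synthesis and moved in opposite directions (SE 0.12 and 0.13, adjusted p = 0.011 and 0.041). Their signs held in all 20 alternative fits, but Phgdh missed the threshold in 6 of these and Psat1 in 10.

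Secreted factors linked to senescence were mixed, with 4 of 20 genes higher and 2 lower. Ccl5, a chemokine gene, had 0.782, 0.53 and 1.29 CPM at 0 Gy and 7.58, 5.99 and 4.08 CPM at 4 Gy (log2 2.70, SE 0.48, adjusted p = 0.0029). Its 0 Gy levels lay near 3 counts, which amounted to 0.772 to 0.795 CPM there, so the size of the rise is uncertain. With the fibroblast covariate it was 1.19 (SE 0.58, adjusted p = 0.55). The neutrophil chemokine genes Cxcl1 and Cxcl2 rose by 0.85 and 0.96 and the collagenase gene Mmp13 by 1.05. Igfbp3, which binds insulin-like growth factors, was among those that fell, by 0.30. Il6 stayed at or below 0.53 CPM. Of 14 TGF-beta targets, Ccn1 and Ccn2 rose (0.77 and 0.60) and 3 fell, among them Id1 (-0.66) and Id2 (-0.64). With the fibroblast covariate none of these calls was kept: Ccn2 went to 0.11 (SE 0.17), while Id2 had -0.66 (SE 0.17). Of the other lists, 1 of 13 tested thyroid genes fell, the factor gene Glis3 (33.9, 20.4 and 19.3 CPM to 14.3, 14.4 and 13.8 CPM, log2 -0.80, adjusted p = 0.027), and 2 of 21 mucosal defence genes, Wfdc2 (-0.55) and Agr2 (-0.67). Calcb, a calcitonin-related peptide gene, was the 1 of 5 in the C cell and parathyroid list that passed (22.4, 38.4 and 18.3 CPM to 45.2, 60.1 and 49.4 CPM), and no gene passed among the 8 multiciliated, 4 immune, 2 endothelial and 5 adipocyte and muscle genes tested. Over all genes tested 5.22% passed and 2.37% fell, so a single call in lists this short is not a result about the list.

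Genes were ranked by size of change among those that passed the test and averaged 10 CPM or more. They also had to move the same way in every culture without overlap between groups. The 2 largest of the 12 leading rises were outside these lists. The uncharacterised gene 9530053A07Rik came first, with 1.82, 2.52 and 2.44 CPM at 0 Gy and 22.3, 20.2 and 17.9 CPM at 4 Gy (log2 3.02, SE 0.23, adjusted p = 1.3e-06). Mcam, a cell adhesion receptor gene (CD146) on chromosome 9 at 44045504 to 44054025 in GRCm39, had 4.69, 5.83 and 8.49 CPM and 43.7, 56.9 and 46.6 CPM (log2 2.89, SE 0.18, adjusted p = 4.7e-07). That the groups of each did not overlap was a condition of the ranking. Sncg (gamma-synuclein) rose by 2.10, Ddit4l, an inhibitor of mTOR signalling, by 2.03 and the carboxylesterase gene Ces2e by 2.02, and the other 7 were interferon-stimulated genes: Ifi44, Isg15, Lgals3bp, Rtp4, Ifit3, Oasl2 and Ifit1. Those of the 12 that are not interferon-stimulated genes passed under all 20 alternatives.

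The 12 largest falls held Flg, Fos, Fosb, Rptn and Aldh1l2, described above, and 7 others. Fgfr3, a receptor for fibroblast growth factors, had 31.4, 26.1 and 31.4 CPM at 0 Gy and 13.6, 10.6 and 9.06 CPM at 4 Gy (log2 -1.49, SE 0.18, adjusted p = 0.00014). 2610528A11Rik, the gene of a small secreted peptide of epithelia, had 295, 235 and 337 CPM and 117, 89.6 and 137 CPM (log2 -1.39, SE 0.10, adjusted p = 9.6e-07). As for the rises, groups that did not overlap were a condition of the ranking. Lgi2 fell by 1.498, the transcription factor gene Tfcp2l1 by 1.48, the serine protease gene Tmprss11a by 1.31, the predicted gene Gm46178 by 1.30 and the Cdc42 effector gene Cdc42ep2 by 1.27. Gm46178 failed the test when the 0 Gy or 4 Gy mTG11 library, culture mTG11 or culture mTG12 was left out. It was not the only one: Rptn missed the threshold in 8 of the 20 alternatives, DESeq2 among them, Aldh1l2 in 4 and Flg in 3. For Rptn the log2 difference ranged from -1.76 to -0.23 across the fits. Without culture mTG11 none of these 4 genes passed.

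The most counted genes were RNA species and barrier genes. Rn18s-rs5, a ribosomal RNA repeat, had 66051, 86738 and 84342 CPM at 0 Gy and 62674, 24432 and 81846 CPM at 4 Gy, with 1 irradiated library, of culture mTG12, well below the rest (log2 -0.61, SE 0.31, adjusted p = 0.33). The mitochondrial ribosomal RNA genes mt-Rnr2 and mt-Rnr1 had log2 differences of -0.39 and -0.43 and did not pass. Sprr2a1 and Sprr2a2, near-identical small proline-rich genes of the cornified layer that can share reads, rose by 0.32 and 0.32 (adjusted p = 0.0054 and 0.0058), and their individual values are uncertain. They are outside the cornified list, of which 8 genes fell and 1 rose. Both missed the threshold in 6 of the 20 alternative fits, among them each fit with a culture left out.

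In the number of genes called and in several list medians, though not in all, 4 Gy lay between 2 Gy and 7 Gy. The 3 comparisons with 0 Gy share the same unirradiated libraries, so only their values are set side by side. Against 0 Gy, 138 genes passed at 2 Gy (0.713%, of which 0.424% higher and 0.289% lower), 1009 at 4 Gy and 2193 at 7 Gy (11.3%, of which 5.34% higher and 6% lower). Of the p53 list 13, 22 and 22 of 30 rose, of the interferon-stimulated list 5, 28 and 36 of 39, and of the mitosis list 0, 4 and 29 of 36 fell. Of the cholesterol list 1, 10 and 20 of 26 fell, and of the DNA replication list 0, 0 and 10 of 35. List medians at 2, 4 and 7 Gy were 0.72, 0.99 and 1.10 for p53 targets, 0.86, 1.57 and 2.58 for interferon-stimulated genes and -0.02, -0.28 and -0.83 for mitosis genes, on the log2 scale. Other medians did not run in dose order: -0.21, -0.15 and -0.40 for cornified, -0.41, -0.25 and -0.43 for mucosal defence and 0.06, 0.51 and 0.42 for fibroblast genes. The 2 Gy libraries of mTG11 and mTG14 held 2528866 and 2738496 counts, fewer than any other day 7 library. The part of depth in the count at 2 Gy was not tested.

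No gene differed between 4 Gy and 2 Gy by edgeR's test at an adjusted p of 0.05, although 1202 genes had an unadjusted p under 0.05, and DESeq2 called 14 (385 unadjusted). For Cdkn1a the 2 Gy libraries had 370.1, 430.2 and 429 CPM, and the log2 difference of 4 Gy over 2 Gy was 0.32 (SE 0.09, adjusted p = 0.53). For Isg15 they had 47.2, 8.60 and 40.5 CPM, and the difference was 1.07 (SE 0.29, adjusted p = 0.46). In culture mTG12 Isg15 at 2 Gy was no higher than at 0 Gy, whereas in mTG14 the 2 Gy and 4 Gy libraries were level.

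Between 7 Gy and 4 Gy 44 genes passed (0.227%), 15 higher (0.0775%) and 29 lower (0.15%) at 7 Gy. Of the interferon-stimulated genes 7 of 39 were higher at 7 Gy. Ifit3b had 20.7, 8.58 and 7.92 CPM at 4 Gy and 69.9, 13.5 and 25.9 CPM at 7 Gy (log2 1.498, SE 0.26, adjusted p = 0.037). Bst2 had 46.4, 22.4 and 15.9 CPM and 121, 24.8 and 47.2 CPM (log2 1.14, SE 0.22, adjusted p = 0.048). In both the mTG11 and mTG14 cultures rose most, while mTG12 differed little for Bst2. Ifit3, Ifit1bl1, Oas1a, Usp18 and Cmpk2 were the other members (1.12, 0.86, 1.25, 1.11 and 1.33), and Sp100 and Oas1g, genes outside the list, had 1.41 and 1.17. Of the p53 list 1 gene, Mdm2, was higher at 7 Gy (68.0, 103 and 72.0 CPM to 123, 132 and 108 CPM, log2 0.62, adjusted p = 0.041), and Tap1 was also higher (log2 0.60).

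Of the mitosis list 3 of 36 genes and of the DNA replication list 1 of 35 were lower at 7 Gy than at 4 Gy. Mki67 had 83.0, 75.01 and 94.2 CPM at 4 Gy and 39.1, 45.2 and 47.2 CPM at 7 Gy (log2 -0.90, SE 0.17, adjusted p = 0.041). Cdca8, of the chromosomal passenger complex, had 43.9, 41.6 and 37.3 CPM at 0 Gy, 45.8, 32.9 and 38.7 CPM at 4 Gy and 20.3, 20.8 and 21.0 CPM at 7 Gy (7 Gy over 4 Gy log2 -0.87, SE 0.16, adjusted p = 0.04). Cdca8 thus overlapped between 0 and 4 Gy and fell clear of both at 7 Gy. Fos (-0.78), Scd1 (-0.70), Gstm1 (-0.56), Top2a (-0.64) and the teneurin gene Tenm4 (-0.81) were lower too. Ndufa4l2, a hypoxia-responsive mitochondrial gene, had 432, 552 and 513 CPM at 0 Gy, 315, 367 and 350.0 CPM at 2 Gy, 196, 262 and 262 CPM at 4 Gy and 123, 137 and 146 CPM at 7 Gy, and its 4 dose groups did not overlap (4 Gy over 0 Gy log2 -1.11, adjusted p = 9.6e-07). In edgeR's test without the culture block 0 genes passed (1346 at an unadjusted p under 0.05), while DESeq2 called 51. No gene passed without culture mTG11 or mTG14 and 91 without mTG12, and 1, 3, 1 and 1 passed without the 4 Gy mTG11, 4 Gy mTG14, 7 Gy mTG11 and 7 Gy mTG14 libraries.

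**Figure D3:**
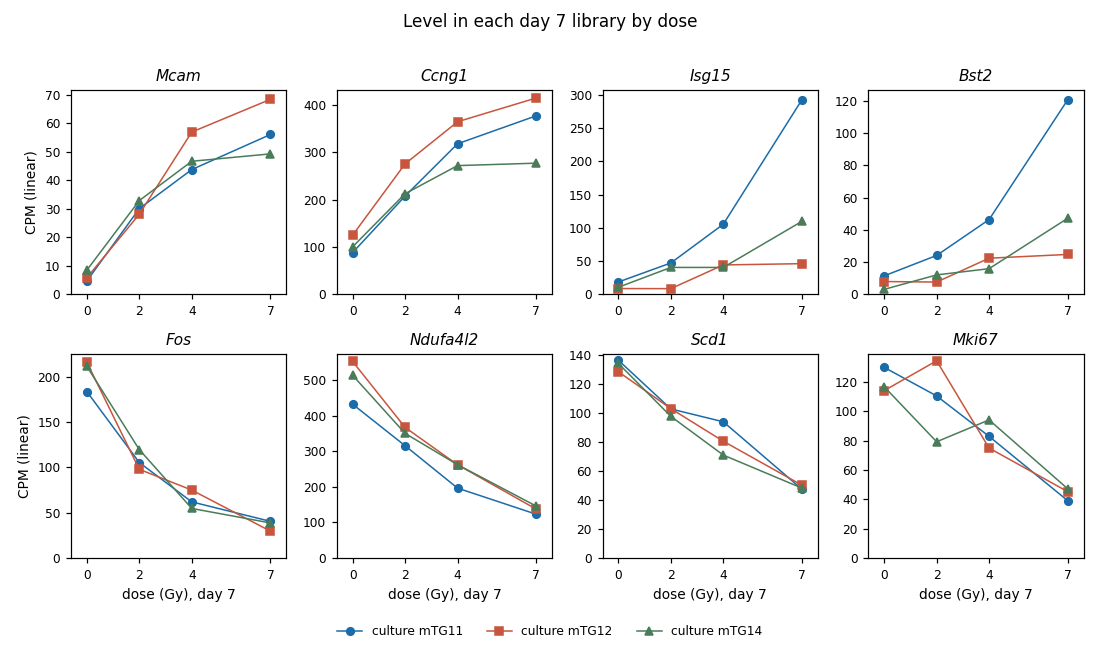
Level in CPM on a linear axis from 0 of 8 genes in the 12 day 7 libraries against the dose in Gy, with lines joining the libraries of a culture. Mcam and Ccng1 climb in every culture up to 4 Gy, Fos and Ndufa4l2 fall at each dose, Isg15 and Bst2 climb most in culture mTG11, and Mki67 lies between 39.1 and 47.2 CPM at 7 Gy.

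The same cultures were also compared on day 11, and 8 of 30 p53 targets had a smaller response to 4 Gy then than on day 7. In a fit of the 24 libraries of days 7 and 11, 198 genes passed for 4 Gy over 0 Gy at day 11 (0.903%), 152 higher (0.693%) and 46 lower (0.21%), while 4 passed without the culture block and DESeq2 called 188. Of the p53 targets 3 of 30 rose at day 11, and of the interferon-stimulated genes 25 of 39. The difference between the responses, day 11 minus day 7, passed for 131 of 21928 genes (0.597%), 79 higher (0.36%) and 52 lower (0.237%). It passed for 8 of the 30 p53 targets, all with a smaller response at day 11, and, by edgeR's test, for 0 of the 39 interferon-stimulated genes (9 at an unadjusted p under 0.05), whose median difference was -0.28.

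Ccng1 had 180.2, 175 and 141 CPM at 0 Gy and 182, 258 and 194 CPM at 4 Gy on day 11 (log2 0.34, SE 0.10), and the day 11 response minus the day 7 response was -1.21 (SE 0.15, adjusted p = 0.00017). Cdkn1a had 446, 468 and 412 CPM and 459, 688 and 561 CPM on day 11, a difference in response of -0.69 (SE 0.14, adjusted p = 0.024). In both genes the unirradiated libraries of day 11 were above those of day 7 in every culture. The irradiated ones were lower on day 11 in every culture for Ccng1 and in mTG11 alone for Cdkn1a. Isg15 had 83.0, 17.3 and 47.3 CPM and 221, 87.3 and 165 CPM on day 11 (log2 1.78, SE 0.26, adjusted p = 0.00057), and its responses at the 2 times differed by -0.52 (SE 0.43, adjusted p = 0.72).

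Some mitosis and cholesterol genes passed the test of the difference between days. Of the mitosis genes 7 of 36 had a higher response at day 11, and Nusap1 had 10.5, 8.85 and 10.4 CPM at 0 Gy and 19.5, 17.1 and 18.6 CPM at 4 Gy on day 11 (log2 0.89, adjusted p = 0.017, difference in response 1.48, SE 0.23, adjusted p = 0.0024). Its unirradiated level was far lower on day 11 than on day 7. Of the cholesterol genes 6 of 26 had a higher response, among them Fdps with 35.7, 33.2 and 29.9 CPM and 61.7, 44.1 and 54.4 CPM on day 11 (log2 0.69, adjusted p = 0.022, difference 1.33, SE 0.19, adjusted p = 0.0012). Of the cornified genes Crnn, Krtdap, Dmkn and Asprv1 had a higher response at day 11 (1.66, 1.73, 1.08 and 3.90). Krt17, which rose at day 7, had 912, 862 and 829.8 CPM and 795, 886 and 862 CPM on day 11 (difference -0.92, adjusted p = 0.02). Without culture mTG11 1 gene passed in place of 131, without mTG14 20 and without mTG12 182, and without the culture block 24.

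**Figure D4:**
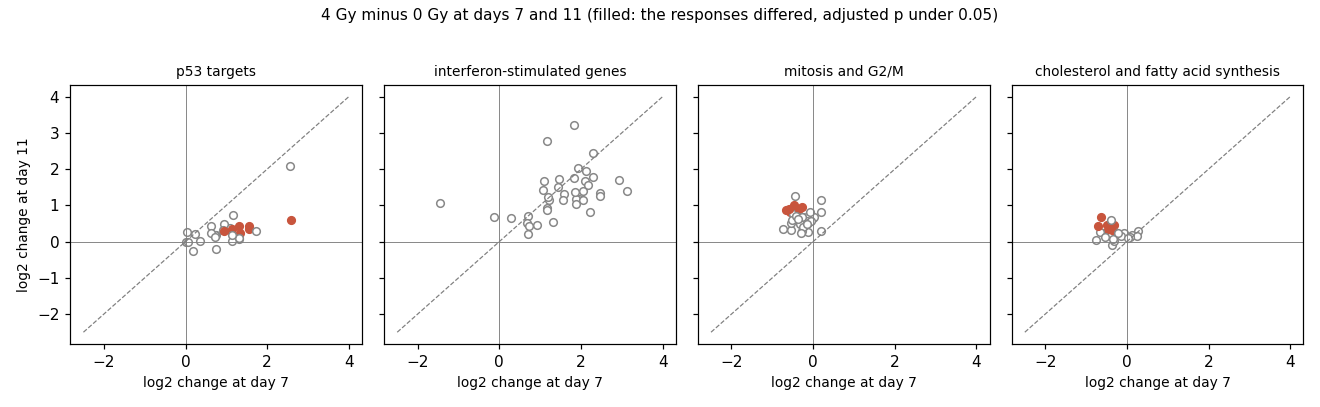
Log2 fold change of 4 Gy over 0 Gy at day 7 (horizontal) against day 11 (vertical) for the members of 4 lists, each point a gene from the fit of 24 libraries, filled where the difference between days passed an adjusted p of 0.05, with a dashed line of equal response. Filled p53 targets lie below the line and filled mitosis and cholesterol genes above it, whereas no interferon-stimulated gene is filled.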

How the data were processed

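Bulk RNA was profiled with Smart3SEQ, a 3′ tag method, in 27 mTGO libraries of 9 groups. The deposited file is a table of estimated counts per gene, which the authors made against GRCm39. STAR and edgeR are named in the submitters' processing notes without versions, and the counting rule, annotation, strand setting and use of molecular identifiers are not given in the sources used here. Of the values above 0, 56.3% were whole numbers, and all counts were rounded before testing. CPM values were computed here from each library's total. Of 50559 genes, the 19346 with at least 10 counts summed over the 12 day 7 libraries were tested (21928 over the 24 libraries of days 7 and 11).

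Tests were edgeR 4.0.16 quasi-likelihood tests in R 4.3.3 (limma 3.58.1) with TMM factors, the culture in the column name as a block and Benjamini-Hochberg adjustment at 0.05. The culture names pair the samples: deviations from the dose means of 13025 genes correlated at 0.188 to 0.335 within a culture between 0 and 4 Gy. Between cultures they correlated at -0.246 to 0.063, on average -0.121. Deviations within a dose sum to 0, so that negative average follows from the positive one within cultures. Per the labels and the study's methods the 3 libraries of a group came from separate mice, although mouse numbers could not be matched to culture names. Day 7 libraries held 2528866 to 5010592 counts, and 3 counts amounted to 0.599 to 1.19 CPM, which covers counting error only. Alternatives were DESeq2 1.42.0, other scaling, filters, samples and covariates. The scripts were tested on simulated data.

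The 26 gene lists and the comparison were chosen with earlier results of these data known. Some genes are not reported here. Named genes were otherwise members called in the lists and the 5 most counted genes. Between 7 and 4 Gy and between days, the 5 largest in each direction were named. The 12 largest rises and falls were taken among genes that passed the test, averaged 10 CPM or more, moved one way in every culture and did not overlap. A few other genes were chosen after their values were seen. Promoters are RefSeq sequences of GRCm38.p6, and positions were found by exact match to GRCm39 with GENCODE vM39 gene places.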

Additional observations from a re-analysis of the deposited data

Results flagged for a closer look

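The 4 Gy response differed between day 11 and day 7 for 131 genes by an interaction term in edgeR (adjusted p under 0.05 over all 21928 genes). The response was higher at day 11 for Asprv1, a protease gene of the cornified layer, by 3.90 on the log2 scale, for the glutathione transferase genes Gsta1 by 2.79 and Gm3776 by 2.68, for the retinol-binding protein gene Rbp2 by 2.12 and for Ly6g6c by 1.93. Gsta1 and Gm3776 are near-identical copies that can share reads, so their separate values are uncertain. The response was lower at day 11 for 9530053A07Rik (-2.40), the adhesion gene Mcam (-2.29), the metalloprotease gene Adam12 (-2.21), the small nuclear RNA gene Rn7sk (-1.77) and the volume-regulated channel gene Lrrc8c (-1.51). None of the genes named here passed without culture mTG11, and Asprv1 and Adam12 did not pass whichever culture was left out. With 3 libraries a group, no group was large enough for a test of single outlying libraries.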

How the results depend on the processing

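The numbers of genes passing at an adjusted p of 0.05 changed with several choices. For 4 Gy against 0 Gy (1009) they were 315 without the replicate block, 651 with DESeq2, 1642 with no filter beyond 1 count, 60 with the fibroblast score as a covariate and 327 to 840 when a library or culture was left out. For 4 Gy against 2 Gy (0) they were 14 with DESeq2, 113 with no filter and 0 to 5 with a library or culture left out. For 7 Gy against 4 Gy (44) they were 0 without the block, 337 with no filter, 25 on unrounded counts, 111 on the compared groups alone and 0 to 91 with a library or culture left out. For the difference between days (131) they were 24 without the block, 629 with no filter and 1 to 182 with a culture left out. For the gene lists at 4 Gy, without the block 0 interferon-stimulated, 0 mitosis and 1 cornified genes passed. With the fibroblast covariate 8 p53 targets, 2 interferon-stimulated, 0 mitosis, 1 cornified, 4 cholesterol and 2 immediate early genes did. In the TGF-beta, basal, MHC class I, BCL2, ATF4, NRF2 and CDK lists that fit kept only the calls of Gstm1 and Cdkn1a. DESeq2 gave 5 cornified genes, and mitosis genes numbered 2 without TMM factors and 9 with no filter. With a library or culture left out the ranges were 18 to 22 p53 targets, 13 to 29 interferon-stimulated, 1 to 3 mitosis, 3 to 10 cornified, 4 to 16 cholesterol and 3 to 5 immediate early genes. Of the values of single named genes under all alternatives, 3133 kept their direction and side of the threshold, 845 lost the call and 43 gained one. The sign turned for 1 gene: Sparc reached -0.070 with the fibroblast covariate, which contains it. The cause of the other changes was not tested. Depth limits what can be said of genes under the level of 3 counts.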
